A study of Sus scrofa with 8 samples.

Results

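The comparison described here set the hearts of Tibetan pigs against those of Yorkshire pigs, whatever the altitude at which they were raised. It took all 8 RNA-seq libraries of the study, 4 per breed, as the labels give them. The Tibetan libraries were 2 of pigs raised in the highland (TH1 and TH2) and 2 of pigs raised in the lowland (TL1 and TL2). The Yorkshire libraries were likewise 2 of highland pigs (YH1 and YH2) and 2 of lowland pigs (YL1 and YL2). The titles, source names and breed labels make YL1 and YL2 Yorkshire, whereas their descriptions point to the table of the TL group, and the breed labels were followed here. All animals were males of 6 months and no treatment was given. Each library held RNA pooled from 4 pigs, per the study's methods, so the p-values below measure the spread between pools. The Tibetan pig is a small breed native to the plateau, and the Yorkshire is a large white breed selected for growth. The question was which heart transcripts differ by breed in the same direction at both altitudes.

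The values were FPKM, read fragments scaled to transcript length and to the mapped fragments of the library. Of 18975 genes listed, the 11709 with at least 1 FPKM in at least 2 of the 7 libraries other than YL2 were compared. Differences are Tibetan minus Yorkshire on the log2(FPKM + 1) scale, with altitude as a second term, and are given with their standard error (4 against 4 libraries). This scale understates differences between low levels. A gene was called, and is said to have risen or fallen in Tibetan pigs, at a limma p-value under 0.05 after Benjamini-Hochberg adjustment over all genes tested. The breeds were said not to overlap for a gene when its 4 libraries of one breed all lay above the 4 of the other.

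Some background helps to place the genes named below. Immediate early genes are transcribed within minutes of a growth, stretch or stress signal without any new protein being made, and most encode transcription factors such as AP-1 subunits. The cardiac muscle cell has largely left the cell cycle, so transcripts of DNA replication and mitosis in heart are low. The heart draws most of its energy from fatty acids, which are oxidised in mitochondria. Fibroblasts and mural cells make most of its collagen, and blood and resident immune cells add globin, immunoglobulin and lymphocyte transcripts to the RNA of whole tissue.

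Between 15686815 and 26722606 reads per library were counted on genes, and the ranges of the breeds overlapped. Cardiac markers were abundant in all 8 libraries: the lowest level of *TNNT2*, cardiac troponin T, was 2804 FPKM. YL2 stood apart, with a mean correlation of 0.868 with the other libraries against 0.905 to 0.933 for the rest. The 38 kidney genes listed summed to 13239.5 FPKM in YL2 and to at most 37.4 in the other Yorkshire libraries and 30.4 in the Tibetan ones. Whether YL2 held RNA of another tissue or carried a wrong label was not tested, and counts are therefore also given without it. Some atrial genes set the TH libraries apart. *NPPA*, atrial natriuretic peptide, was at 2263 and 2146 FPKM for TH, 53.1 and 108 for TL, 23.1 and 93.1 for YH, 23.3 and 46.3 for YL. Others did not: *TBX5* was at 9.14 and 8.39 FPKM for TH and 15.3 and 17.1 for TL, and *MYL4* was also lower for TH than for TL. The 15 atrial genes listed summed to 1633 to 11779.6 FPKM in the Tibetan libraries and 566 to 3078 in the Yorkshire libraries, with overlap between the breeds. Genes of the mitochondrial genome took 76.3 to 87.6% of all FPKM in the Tibetan and 57.7 to 80.3% in the Yorkshire libraries. The part of these features in the results below was not tested. The Y-linked *DDX3Y* was present in all libraries, at 20.9 to 34.1 FPKM in the Tibetan libraries and 9.93 to 20.9 in the Yorkshire libraries. *USP9Y*, also Y-linked, was at 3.26 to 3.85 against 1.22 to 3.04 FPKM without overlap, while *UTY* and *ZFY* overlapped. In pools, Y-linked transcripts show that males were present, and whether every pig was male was not tested.

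Limma called 27 genes between the breeds (0.231% of the genes tested). Of these, 20 rose in Tibetan pigs (0.171%) and 7 fell (0.0598%). At an unadjusted p under 0.05 there were 1350 genes. The breeds did not overlap for 945 genes (8.07%), 544 of them higher in Tibetan (4.65%) and 401 higher in Yorkshire (3.42%), and all 27 called genes were among them. With each library scaled by the median ratio over genes of at least 10 FPKM, which moved the median difference of all genes from -0.01 to -0.10, this split turned to 391 higher and 523 lower. With nuclear FPKM scaled to equal sums it was 202 higher and 75 lower. Without YL2, limma called 41 genes (0.35%), 25 higher and 16 lower in Tibetan, and 24 of the 27 genes remained called. The breeds then did not overlap for 1718 genes (14.7%), 949 of them higher (8.1%) and 769 lower (6.57%) in Tibetan.

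The number of calls depended strongly on single libraries. It was 37 without TH1, 2 without TH2, 1 without TL1, 0 without TL2, 2 without YH1, 5 without YH2 and 0 without YL1. At an unadjusted p under 0.05 there were still 983 genes without TL2 and 1931 without YL1. The edgeR test on the reads per gene called 33 genes, 21 of them among the 27, and 124 without YL2. At a log2 difference over 1 and a p under 0.01, limits the study also used, applied here to the adjusted p, limma called 0 genes, where the adjusted threshold of 0.05 alone gave 27. The direction of each called gene was the same in every one of these fits. Most of the differences that separated the breeds were moderate: the median size over the 945 genes was 0.62, and 191 differed by more than 1. In 28 genes the lowest Tibetan library was at least 1 FPKM and more than 2 times the highest Yorkshire library, and in 11 genes the reverse held.

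**Figure D1:**
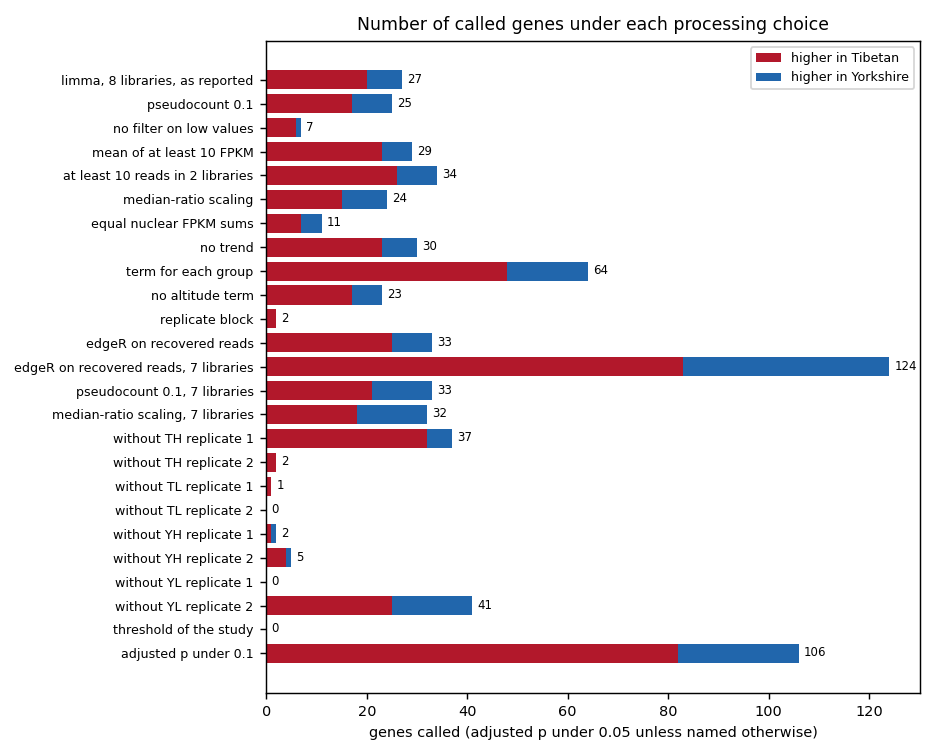
Number of genes called between the breeds (horizontal axis) under each processing choice (vertical axis), with genes higher in Tibetan in red and genes higher in Yorkshire in blue. The bar of the reported fit stands at 27, the bars that leave out 1 library run from 0 to 41, and edgeR without YL2 gives 124.

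The breed difference was computed within each altitude from separate libraries, TH against YH and TL against YL. Across the 11709 genes the 2 differences were almost unrelated, with a Pearson correlation of 0.068 and a Spearman correlation of 0.062 (0.092 and 0.038 without YL2), given as a description since genes are not independent. They had the same sign in 51.2% of genes. An interaction of breed and altitude passed the threshold for 5 of all genes tested (limma, 0.0427%). The 27 called genes were chosen by a fit without that interaction, which favours like differences at both altitudes, so their likeness is a description.

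**Figure D2:**
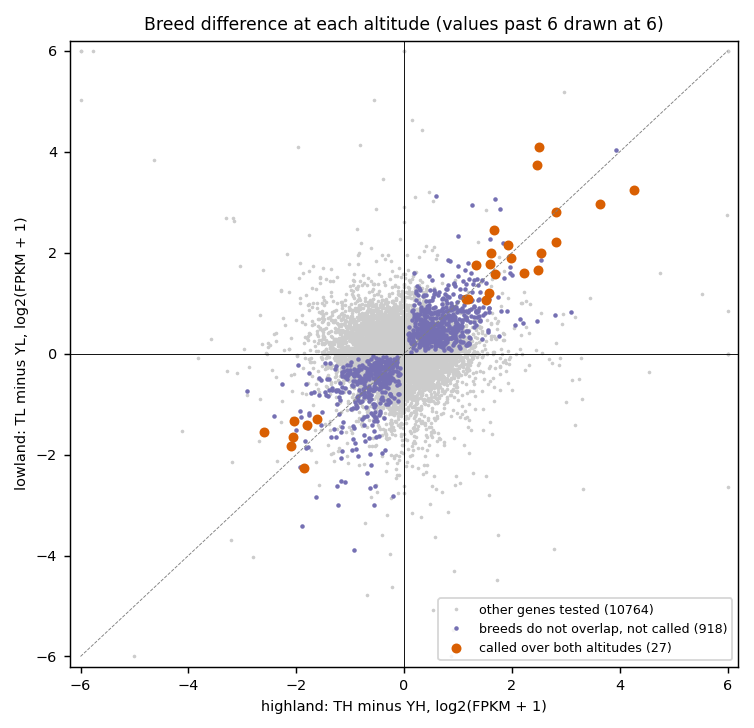
Breed difference in log2(FPKM + 1) in the highland (TH minus YH, horizontal axis) and in the lowland (TL minus YL, vertical axis) for each gene tested, with differences past 6 in size drawn at 6. The 27 called genes (orange) lie in the lower left and upper right quadrants along the dashed line of equal differences, while the grey cloud of genes whose breeds overlap shows no slope.

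Immediate early genes had the highest median breed difference of all gene lists examined. Of 30 members tested, 27 were higher in Tibetan, 6 rose, 0 fell, and in 14 the breeds did not overlap, every time with Tibetan above Yorkshire (46.7% of members against 8.07% of all genes). One of the 14, *EGR2*, passed the filter on level through the Tibetan libraries alone, which leaves 13 of the 29 members in which both breeds reached 1 FPKM. The median difference was 1.12 against -0.01 over all genes, and it was 1.09 in the highland and 1.07 in the lowland (0.98 without YL2). It stayed between 1.06 and 1.21 when any 1 library was left out, and the 14 genes and their direction were as many under both other scalings. The 32 listed members summed to 1397 to 1724 FPKM in the Tibetan libraries and 444 to 670.0 in the Yorkshire libraries. In bulk tissue, fewer cells of a type and less RNA per cell cannot be told apart, here and below.

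The called gene with the smallest p was *FOS* (ENSSSCG00000002383, chromosome 7, 104293656 to 104297121 in Sscrofa10.2), the AP-1 subunit that gives the group its usual marker. It was at 53.8 and 85.5 FPKM for TH, 50.9 and 42.0 for TL, 3.40 and 5.91 for YH, 4.30 and 5.98 for YL. The lowest Tibetan library lay far above the highest Yorkshire library, and the difference was 3.30 ± 0.26, adjusted p = 0.0162. *FOS* remained called in 19 of 22 alternatives, more than any other called gene. *ATF3* (ENSSSCG00000015595, chromosome 9, 143690555 to 143703872), a transcription factor induced by stress, was at 38.8 and 49.998 FPKM for TH, 144 and 179.6 for TL, 5.24 and 9.16 for YH, 13.5 and 5.17 for YL (difference 3.30 ± 0.41, adjusted p = 0.0316). Its lowland Tibetan libraries were the highest of all. *NR4A1* (ENSSSCG00000028326, scaffold GL892233.1, 20 to 1787), an orphan nuclear receptor, was at 47.3 and 102 FPKM for TH, 266 and 106 for TL, 10.3 and 13.6 for YH, 12.5 and 10.8 for YL (difference 3.10 ± 0.41, adjusted p = 0.0376; without YL2, adjusted p = 0.0585). *EGR1* (ENSSSCG00000014336, chromosome 2, 146156064 to 146160020), a zinc finger transcription factor, was at 51.1 and 65.5 FPKM for TH, 45.6 and 30.5 for TL, 4.58 and 11.5 for YH, 4.95 and 10.4 for YL (difference 2.52 ± 0.33, adjusted p = 0.0376). For both, every Tibetan library exceeded every Yorkshire library by a wide margin.

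The group also held secreted matricellular proteins. *CTGF* (ENSSSCG00000004192, chromosome 1, 35133812 to 35137139), a secreted protein associated with fibrosis, was at 192 and 176 FPKM for TH, 81.2 and 151 for TL, 29.7 and 34.7 for YH, 28.1 and 42.2 for YL (difference 2.07 ± 0.28, adjusted p = 0.0382). *CYR61* (ENSSSCG00000006940, chromosome 4, 142924365 to 142927632), its close relative in the same family, was at 178 and 170.2 FPKM for TH, 95.9 and 65.3 for TL, 30.6 and 43.9 for YH, 28.1 and 23.0 for YL (difference 1.91 ± 0.23, adjusted p = 0.0316). The Yorkshire levels of both genes were within a narrow range. *CTGF* was also the single called member of 31 genes of cardiac load and stress tested, in which the breeds did not overlap for 3 (*CTGF*, *TGFB3* and *NPR1*; 9.68%, against 8.07% of all genes). Without YL2 they did not overlap for 5 with Tibetan higher and 2 with Tibetan lower (22.6%, against 14.7% of all genes). The median difference of this list was 0.34, or 0.15 without YL2 and 0.57 without YL1.

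Of the remaining immediate early genes, *DUSP1* (ENSSSCG00000016991, chromosome 16, 55768408 to 55771513), a phosphatase that switches off MAP kinases, just missed the threshold (difference 1.78 ± 0.26, adjusted p = 0.0501). It ranged from 115 to 232 FPKM in the Tibetan libraries and 32.0 to 60.1 in the Yorkshire libraries. The breeds also did not overlap for *BTG2*, *NR4A2*, *GADD45G*, *IER5*, *PPP1R15A*, *EGR2* and *IER3*, with differences of 0.996 (*IER3*) to 2.32 (*BTG2*) and adjusted p from 0.0684 (*EGR2*) to 0.188 (*IER3*). The edgeR test called *EGR2* (adjusted p = 0.0291). Not all members differed: *SOCS3* was at 1.19 to 7.63 against 1.69 to 7.42 FPKM and *MYC* at 5.12 to 10.3 against 2.09 to 8.12 FPKM in Tibetan and Yorkshire libraries, with overlap. *DUSP6*, *MCL1* and *CITED2* were lower in Tibetan, with differences of -0.07 (*DUSP6*) to -0.47 (*MCL1*) and adjusted p of 0.595 (*MCL1*) or more.

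**Figure D3:**
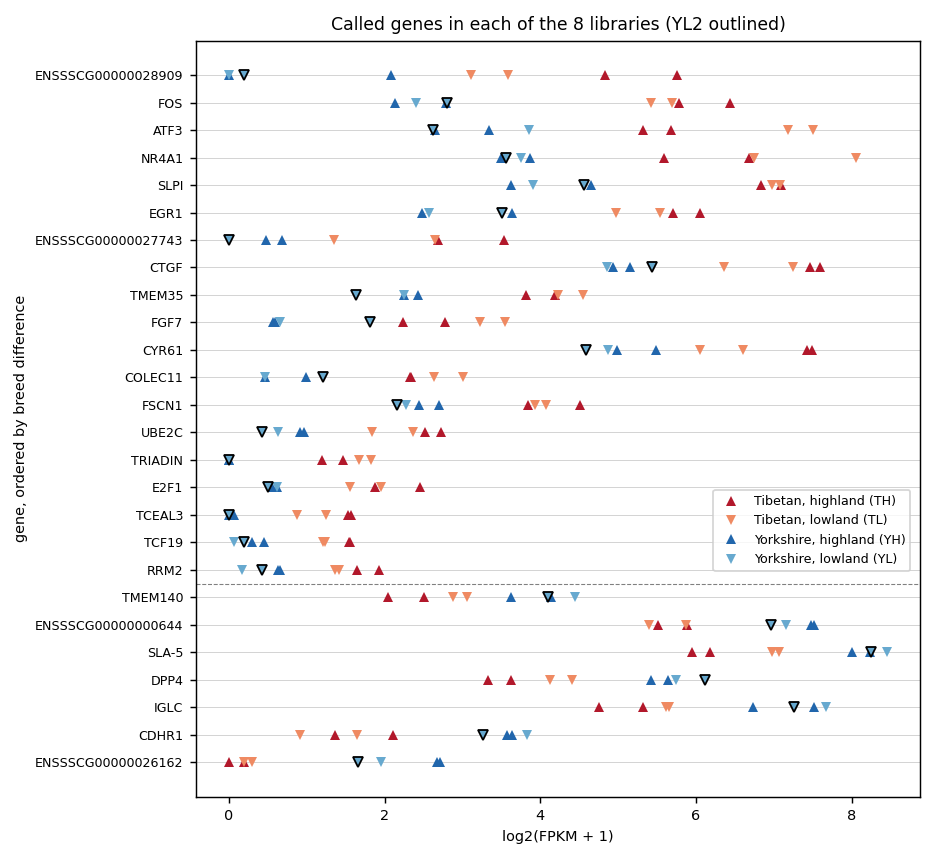
Level of the called genes, other than 1 that rose and is not reported here, in each library, log2(FPKM + 1) on the horizontal axis, with genes ordered by breed difference from top to bottom; red and orange stand for Tibetan, blue for Yorkshire, upward triangles for highland and downward for lowland, and YL2 is outlined. In every row the 4 Tibetan and 4 Yorkshire symbols form separate sets, with Tibetan to the right for the upper genes and to the left for the 7 lower ones.

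Outside this group, *SLPI* (ENSSSCG00000022913, chromosome 17, 53167237 to 53169798) was the called gene with the next smallest p. It encodes a secreted inhibitor of neutrophil elastase and other serine proteases. It was at 135 and 113 FPKM for TH, 124 and 135 for TL, 11.3 and 24.1 for YH, 14.0 and 22.5 for YL (difference 2.81 ± 0.26, adjusted p = 0.0298), and the differences were 2.82 in the highland and 2.80 in the lowland. The Tibetan libraries lay within a narrow range, and *SLPI* remained called in 17 of 22 alternatives. It was the single called member of 24 genes of the glucocorticoid response tested, where 0.231% of all genes were called. In that list the breeds did not overlap for 2, both higher in Tibetan (8.33%, against 8.07% of all genes). Without YL2 they did not overlap for 3 with Tibetan higher and 5 with Tibetan lower (33.3%, against 14.7% of all genes). The median difference of the list was -0.15 (from -0.24 without TL2 to -0.10 without TH1). *NR3C1*, the glucocorticoid receptor itself, ranged from 2.12 to 4.34 FPKM in the Tibetan libraries and 3.58 to 5.31 in the Yorkshire libraries, with overlap.

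Other genes that rose in Tibetan pigs were of varied function. *TMEM35* (ENSSSCG00000012490, chromosome X, 90744038 to 90757439), a membrane protein known for the assembly of nicotinic acetylcholine receptors, was at 13.1 and 17.2 FPKM for TH, 17.6 and 22.5 for TL, 3.74 and 4.38 for YH, 3.76 and 2.09 for YL (difference 2.06 ± 0.24, adjusted p = 0.0316). *COLEC11* (ENSSSCG00000025629, chromosome 3, 140472789 to 140565196), a collectin of the lectin pathway of complement, was at 4.03 and 4.05 FPKM for TH, 5.23 and 7.04 for TL, 0.978 and 0.381 for YH, 0.373 and 1.32 for YL (difference 1.80 ± 0.23, adjusted p = 0.0327). *FSCN1* (ENSSSCG00000007586, chromosome 3, 4776500 to 4785615), which bundles actin filaments, was at 21.7 and 13.3 FPKM for TH, 14.2 and 15.9 for TL, 5.47 and 4.46 for YH, 3.84 and 3.48 for YL (difference 1.69 ± 0.18, adjusted p = 0.0316). In these 3 genes the breeds were separated by more than the range of the Yorkshire libraries, and for *COLEC11* the edgeR test gave an adjusted p of 0.0561.

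In the 3 called genes that follow, at least 1 Yorkshire library was listed at 0. *TCEAL3* (ENSSSCG00000028062, chromosome X, 97459031 to 97461074), a small X-linked protein of the transcription elongation factor family, had 33 to 67 reads per Tibetan library and 0 to 2 per Yorkshire library (difference 1.29 ± 0.17, adjusted p = 0.0376). ENSSSCG00000028909 (scaffold GL893389.1, 24947 to 44172), which has no symbol in the sources used here, was at 53.1 and 27.5 FPKM for TH, 10.9 and 7.67 for TL, 3.22 and 0 for YH, 0 and 0.147 for YL (difference 3.75 ± 0.47, adjusted p = 0.0316; edgeR adjusted p = 0.0618). The Tibetan highland libraries were the highest of its 8. ENSSSCG00000027743 (chromosome 12, 55382305 to 55382924) was at 5.43 and 10.6 FPKM for TH, 1.55 and 5.24 for TL, 0.386 and 0.607 for YH, 0 and 0 for YL (difference 2.26 ± 0.32, adjusted p = 0.0489; without YL2, adjusted p = 0.0633).

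A pair of the 27 calls rested on few reads. The gene named *TRIADIN* in the table (chromosome 1, 43787654 to 43792674), after the sarcoplasmic reticulum protein of the calcium release complex, had 1, 1, 2 and 2 reads in the Tibetan libraries and is listed at 0 in all Yorkshire libraries. With so few reads no fold change is given, and the edgeR test gave an adjusted p of 0.358. *FGF7* (chromosome 1, 135992857 to 135993148), a growth factor for epithelial cells, had 6 to 25 reads per Tibetan library and 1 to 8 per Yorkshire library (difference 2.04 ± 0.27, adjusted p = 0.0376; edgeR adjusted p = 0.104).

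Genes of DNA replication and cell division, most of them at low levels, often separated the breeds, with Tibetan higher. The list was drawn up after the values had been seen, so its count is a description. The list has 82 members among the genes listed, and over all of them, with no filter on level, the breeds did not overlap for 38, all higher in Tibetan (46.3%, against 6.8% of all 18975 genes). Of the 56 members tested, 4 rose and 0 fell. Counts over those tested depend on the filter: 23 had every Yorkshire library below 1 FPKM, and so passed only through the Tibetan libraries, and these held 21 of the 25 tested members whose breeds did not overlap. Of the 33 members in which both breeds reached 1 FPKM in some library, 4 did not overlap, all higher in Tibetan, as did 475 of 11406 such genes overall. The tested members that were lower in Tibetan were *CCND1*, *CCND2* and *CDK4*.

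The called members spanned the cycle, and all 4 passed the filter on level through the Tibetan libraries alone. *E2F1* (ENSSSCG00000007268, chromosome 17, 42116177 to 42121899), the transcription factor that opens S phase, was at 4.48 and 2.66 FPKM for TH, 1.94 and 2.86 for TL, 0.464 and 0.537 for YH, 0.539 and 0.411 for YL (difference 1.39 ± 0.19, adjusted p = 0.0466). *RRM2* (ENSSSCG00000021742, scaffold GL892316.1, 25773 to 31862), the regulated subunit of ribonucleotide reductase, was at 2.12 and 2.80 FPKM for TH, 1.66 and 1.57 for TL, 0.573 and 0.542 for YH, 0.119 and 0.347 for YL (difference 1.12 ± 0.15, adjusted p = 0.0376). Both act when DNA is copied. *UBE2C* (ENSSSCG00000007423, chromosome 17, 53664232 to 53667596), the ubiquitin-conjugating enzyme of the anaphase-promoting complex, was at 5.63 and 4.74 FPKM for TH, 2.58 and 4.17 for TL, 0.877 and 0.958 for YH, 0.544 and 0.34 for YL (difference 1.63 ± 0.17, adjusted p = 0.0312). *TCF19* (ENSSSCG00000001392, chromosome 7, 27271549 to 27275261), a nuclear factor expressed at the transition to S phase, was at 1.92 and 1.94 FPKM for TH, 1.32 and 1.36 for TL, 0.229 and 0.362 for YH, 0.0499 and 0.146 for YL (difference 1.14 ± 0.14, adjusted p = 0.0316). In all 4 the lowest Tibetan library lay above the highest Yorkshire library, at levels that were low in both breeds.

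Genes of the replicative helicase were also higher in Tibetan, without passing the threshold in all 8 libraries. The *MCM* genes named here, *TOP2A*, *CCNB1* and *UHRF1* passed the filter on level through the Tibetan libraries alone. *MCM2* was at 1.19 to 2.52 against 0.135 to 0.465 FPKM (Tibetan against Yorkshire, difference 1.11 ± 0.18, adjusted p = 0.0684), *MCM3* at 1.15 to 2.56 against 0.181 to 0.572 FPKM, *MCM4* at 1.85 to 4.19 against 0.324 to 0.804 FPKM and *MCM5* at 0.839 to 2.56 against 0.285 to 0.615 FPKM. Without YL2, *MCM2* and *MCM4* were called (adjusted p = 0.0418 and 0.0474). *PCNA*, the sliding clamp of DNA polymerase, was at 12.4 to 17.3 against 6.25 to 9.45 FPKM (difference 0.84 ± 0.16, adjusted p = 0.0962). Mitotic genes included *TOP2A*, topoisomerase II alpha, at 0.877 to 1.56 against 0.133 to 0.28 FPKM (difference 0.85 ± 0.16, adjusted p = 0.0886), and *CCNB1*, cyclin B1, at 0.644 to 1.43 against 0.232 to 0.313 FPKM (difference 0.66 ± 0.17, adjusted p = 0.19). The edgeR test called *TOP2A* (adjusted p = 0.0222) and *UHRF1* (adjusted p = 0.0146), a factor that maintains DNA methylation. *STMN1*, which destabilises microtubules and is often used as a marker of growing cells, was at 30.6 and 36.2 FPKM for TH, 28.4 and 33.4 for TL, 15.6 and 15.9 for YH, 16.7 and 11.1 for YL (difference 1.08 ± 0.17, adjusted p = 0.0684).

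A second list put together after the values were seen held non-sarcomeric actin, tubulin and intermediate filament genes. Of 42 members tested, 37 were higher in Tibetan, 1 rose (*FSCN1*), and the breeds did not overlap for 19, all higher in Tibetan (45.2%, against 4.65% of all genes in that direction), or for 12 with equal sums of nuclear FPKM. *TMSB15A*, 1 of the 19, passed the filter on level through the Tibetan libraries alone, which leaves 18 of the 41 members in which both breeds reached 1 FPKM. The median difference was 0.74 (0.79 without YL2). *VIM*, vimentin, the intermediate filament of fibroblasts and endothelium, was at 324 and 337 FPKM for TH, 206 and 192 for TL, 92.0 and 131 for YH, 89.4 and 97.9 for YL (difference 1.33 ± 0.20, adjusted p = 0.0547). *TUBA1C*, an alpha tubulin, was at 73.6 and 51.1 FPKM for TH, 34.7 and 46.4 for TL, 10.7 and 21.1 for YH, 15.2 and 8.79 for YL (difference 1.83 ± 0.28, adjusted p = 0.0596). *TMSB15A*, a thymosin that binds actin monomers, was at 3.41 to 13.2 against 0.169 to 0.492 FPKM (difference 2.19 ± 0.32, adjusted p = 0.0501; edgeR adjusted p = 0.0169). Actin and tubulin genes are near-identical copies of one another, 2 gene models each carry the names *TUBA1B* and BETA-ACTIN, and the counting could divide their reads, so single members of these families are uncertain.

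**Figure D4:**
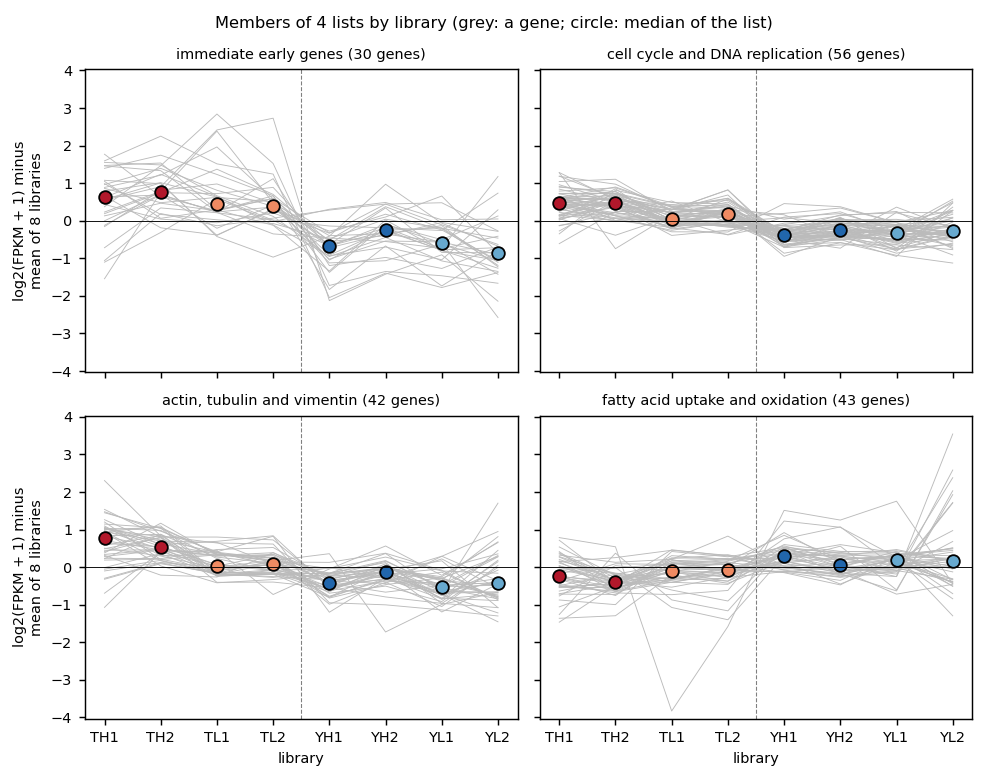
Each member's log2(FPKM + 1) minus its mean over the 8 libraries (vertical axis) in each library (horizontal axis) for 4 gene lists; grey lines are genes, circles are list medians coloured by group, and the dashed line divides Tibetan from Yorkshire. The medians of the first 3 lists lie above 0 in all 4 Tibetan libraries and below 0 in all 4 Yorkshire libraries, and those of the fatty acid list the other way round.

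Collagens and other matrix genes were mostly higher in Tibetan, with no call. Of 51 tested, 45 were higher, and the breeds did not overlap for 10, all higher in Tibetan (19.6%, against 4.65% of all genes in that direction), or for 5 with equal sums of nuclear FPKM. The median difference was 0.62 (from 0.50 without YL2 to 0.94 without TH1), 0.42 in the highland and 0.85 in the lowland (0.71 without YL2). *COL1A2*, a chain of type I collagen, was at 32.7 and 56.6 FPKM for TH, 59.8 and 42.9 for TL, 17.4 and 17.9 for YH, 15.4 and 16.5 for YL (difference 1.42 ± 0.22, adjusted p = 0.0624; edgeR adjusted p = 0.0474). *COL15A1*, of the basement membrane zone, was at 55.3 and 43.7 FPKM for TH, 77.2 and 70.0 for TL, 27.9 and 27.1 for YH, 20.6 and 18.4 for YL in the gene model ENSSSCG00000005381 (difference 1.34 ± 0.24, adjusted p = 0.0844; edgeR adjusted p = 0.0474), while its other model overlapped (ENSSSCG00000005380, difference 0.66 ± 0.65, adjusted p = 0.712). *PCOLCE*, which promotes procollagen processing, was at 41.1 to 66.7 against 22.3 to 30.0 FPKM (difference 0.99 ± 0.16, adjusted p = 0.0684). *BGN*, *LOXL1*, *FN1*, *LUM*, *COL4A2*, *SERPINH1* and *THBS2* also did not overlap, with differences of 0.60 (*THBS2*) to 1.56 (*BGN*) and adjusted p of 0.118 (*COL4A2*) or more. *COL1A1*, the partner chain of *COL1A2*, overlapped widely, at 2.05 and 51.9 FPKM for TH, 34.7 and 23.3 for TL, 12.8 and 18.0 for YH, 7.36 and 6.68 for YL in the model ENSSSCG00000017579 (difference 0.76 ± 0.85, adjusted p = 0.744), with TH1 the lowest of all libraries. Its other model, ENSSSCG00000017581, also overlapped, at 43.3 and 192 FPKM for TH, 187 and 124 for TL, 45.4 and 80.3 for YH, 34.6 and 47.8 for YL (difference 1.24 ± 0.50, adjusted p = 0.41).

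Genes of mural cells, which wrap vessels, had a median difference of 0.60, and endothelial genes one of 0.18, from 0.07 without TL2 to 0.28 without TH1. The mural median was 0.15 in the highland and 0.89 in the lowland (0.91 without YL2). The endothelial median was -0.16 in the highland and 0.43 in the lowland (0.26 without YL2). Of 16 smooth muscle and pericyte genes tested, 4 did not overlap, all higher in Tibetan (25%, against 4.65% of all genes in that direction): *ACTA2*, *CSPG4* and 1 of 2 gene models each of *PDGFRB* and *NOTCH3*, with differences of 0.72 (*CSPG4*) to 0.99 (*ACTA2*) and adjusted p from 0.0962 (*CSPG4*) to 0.243 (*ACTA2*). *CSPG4* passed the filter on level through the Tibetan libraries alone. *ACTA2*, smooth muscle actin, was at 49.3 and 80.6 FPKM for TH, 74.9 and 50.4 for TL, 44.3 and 42.8 for YH, 17.6 and 26.6 for YL. The other models of *PDGFRB* (ENSSSCG00000014442, difference -0.06) and *NOTCH3* (ENSSSCG00000023899, difference 0.28) overlapped. The smooth muscle list summed to 1714 to 9610.1 FPKM in the Tibetan libraries and 1105 to 3775 in the Yorkshire libraries, most of it *DES*, desmin, which heart muscle also makes. The other 15 genes summed to 412 to 532 FPKM in the Tibetan and 185 to 393 in the Yorkshire libraries, without overlap. Of 25 endothelial genes, 1 did not overlap (4%, against 8.07% of all genes), *PECAM1*, at 71.4 to 96.8 against 35.7 to 65.6 FPKM (difference 0.69 ± 0.18, adjusted p = 0.219), and the list summed to 552 to 605 FPKM in the Tibetan libraries and 362 to 563 in the Yorkshire libraries. The part of cell composition in the matrix difference was not tested.

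Among the 7 genes that fell in Tibetan pigs, *DPP4* (ENSSSCG00000015894, chromosome 15, 76152547 to 76235571) had the smallest p. It encodes the cell surface peptidase that cleaves incretins and other peptides. It was at 11.3 and 9.01 FPKM for TH, 16.5 and 20.3 for TL, 41.9 and 48.9 for YH, 52.3 and 68.4 for YL (difference -1.86 ± 0.18, adjusted p = 0.0312), and the differences were -2.06 in the highland and -1.66 in the lowland. The lowest Yorkshire library lay well above the highest Tibetan library. *DPP4* was the single called member of 9 renin-angiotensin genes tested, where 0.231% of all genes were called. *AGT*, angiotensinogen, overlapped at 41.7 to 94.3 against 27.7 to 80.2 FPKM. *CDHR1* (ENSSSCG00000010348, chromosome 14, 92234658 to 92259048), a cadherin best known from photoreceptors, was at 3.32 and 1.57 FPKM for TH, 2.11 and 0.877 for TL, 10.8 and 11.4 for YH, 13.2 and 8.63 for YL (difference -2.07 ± 0.26, adjusted p = 0.0316). *TMEM140* (ENSSSCG00000016530, chromosome 18, 14940690 to 14955817), a transmembrane protein, was at 4.66 and 3.11 FPKM for TH, 6.35 and 7.34 for TL, 16.6 and 11.3 for YH, 20.8 and 16.1 for YL (difference -1.46 ± 0.20, adjusted p = 0.0384).

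A further pair of genes that fell has no symbol in the sources used here. ENSSSCG00000026162 (scaffold GL896312.2, 98599 to 106586) had 0 to 9 reads in each Tibetan library and 77 to 204 in each Yorkshire library, and its levels were 0 and 0.14 FPKM for TH, 0.148 and 0.229 for TL, 5.54 and 5.37 for YH, 2.88 and 2.17 for YL (difference -2.08 ± 0.23, adjusted p = 0.0316). It was the single gene in which a lowest Yorkshire library of at least 1 FPKM exceeded the highest Tibetan library by more than 4 times. ENSSSCG00000000644 (chromosome 5, 64512174 to 64520315) was at 44.8 and 58.1 FPKM for TH, 41.2 and 57.6 for TL, 182 and 176 for YH, 141 and 124 for YL (difference -1.61 ± 0.19, adjusted p = 0.0316).

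The other calls lower in Tibetan were genes of adaptive immunity. *IGLC* (ENSSSCG00000010044, chromosome 14, 52423075 to 52424872), the constant region of the immunoglobulin lambda light chain, was at 38.8 and 25.9 FPKM for TH, 48.2 and 49.2 for TL, 105 and 183 for YH, 203 and 152 for YL (difference -1.96 ± 0.24, adjusted p = 0.0316). *IGKC*, the kappa counterpart, named here after its values were seen, ranged from 8.19 to 22.5 FPKM in the Tibetan libraries and 48.9 to 303 in the Yorkshire libraries without overlap (difference -2.65 ± 0.57, adjusted p = 0.125). *SLA-5* (ENSSSCG00000001229, chromosome 7, 24683604 to 24687412), a class I gene of the swine leukocyte antigen complex, was at 71.3 and 60.9 FPKM for TH, 133 and 125 for TL, 255 and 299 for YH, 351 and 304 for YL (difference -1.69 ± 0.21, adjusted p = 0.0316; edgeR adjusted p = 0.0642). A gene model in the same stretch of chromosome 7, TMP-CH242-74M17.4 (24704563 to 24708270), was lower as well, at 0.111 and 0.125 FPKM for TH, 1.14 and 0.741 for TL, 1.82 and 1.40 for YH, 21.7 and 9.52 for YL (difference -2.11 ± 0.40, adjusted p = 0.0962; edgeR adjusted p = 0.012). *SLA-2*, a class I gene that starts at 24748104, was higher, at 225 to 296 against 141 to 196 FPKM without overlap (difference 0.62 ± 0.18, adjusted p = 0.253). Of 14 genes of antigen presentation tested, 11 were lower, 1 fell, and only *SLA-5* and *SLA-2* did not overlap (14.3%, against 8.07% of all genes). The median difference of the list was -0.79 in the highland and 0.20 in the lowland (0.16 without YL2). Without YL2, 1 member did not overlap with Tibetan higher and 3 with Tibetan lower (28.6%, against 14.7% of all genes). Antigen and immunoglobulin genes are families of similar and polymorphic sequence, so reads of one allele can be counted on another member or missed, and these values are uncertain.

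Lymphocyte and interferon transcripts were mostly lower in Tibetan hearts, with no call in either list. Of 18 T, NK and B cell genes tested (of 32 listed), 17 were lower, and *KLRK1*, *CD3E* and *KLRB1* did not overlap (16.7%, against 3.42% of all genes in that direction; differences -1.19, -1.10 and -0.69; adjusted p = 0.169, 0.315 and 0.367). The median difference of the list was -1.24 in the highland and -0.01 in the lowland (0.14 without YL2), and this contrast between altitudes was not tested. The list summed to 36.4 to 68.5 FPKM in the Tibetan libraries and 62.7 to 125 in the Yorkshire libraries. Of 32 interferon-stimulated genes, 30 were lower, with a median of -0.48 (-0.88 without YL2 and -0.05 without YL1). The breeds did not overlap for 4 gene models, all lower in Tibetan (12.5%, against 3.42% of all genes in that direction), or for 0 with equal sums of nuclear FPKM. Among the 4 were *STAT2* and *PARP9*, with adjusted p of 0.307 or more (*PARP9*). *ISG15*, an interferon-induced ubiquitin-like protein, was at 10.7 and 10.9 FPKM for TH, 9.80 and 21.6 for TL, 18.4 and 7.89 for YH, 127 and 11.6 for YL, with YL1 far above all others.

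Of 17 macrophage and myeloid genes, 14 were lower, and *CD86*, a co-stimulatory molecule, did not overlap at 0.509 to 0.994 against 1.15 to 5.64 FPKM (difference -1.33 ± 0.33, adjusted p = 0.188; without YL2, -1.70 ± 0.19, adjusted p = 0.0385). It passed the filter on level through the Yorkshire libraries alone, and of the 16 members in which both breeds reached 1 FPKM, 0 separated the breeds. The median difference of the myeloid list was -0.43 in the highland and -0.001 in the lowland (0.03 without YL2). *CXCL16* and *CCL8* were the 2 of 19 chemokine and receptor genes that did not overlap, both lower in Tibetan (10.5%, against 3.42% of all genes in that direction). *CCL8* passed the filter on level through the Yorkshire libraries alone, and *CXCL16* was called without YL2 (-1.17 ± 0.14, adjusted p = 0.0385). *CCL2*, a monocyte attractant, overlapped at 12.3 to 156 against 8.02 to 52.5 FPKM. The chemokine and receptor list had a median of -0.62 in the highland and 0.22 in the lowland (0.21 without YL2). Of 32 complement and coagulation genes, *C1R*, *C2* and *CFI* did not overlap, all lower in Tibetan (9.38%, against 3.42% of all genes in that direction), with adjusted p of 0.188 (*C2*) or more. The median of the complement and coagulation list was -0.32 in the highland and 0.20 in the lowland (-0.08 without YL2).

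**Figure D5:**
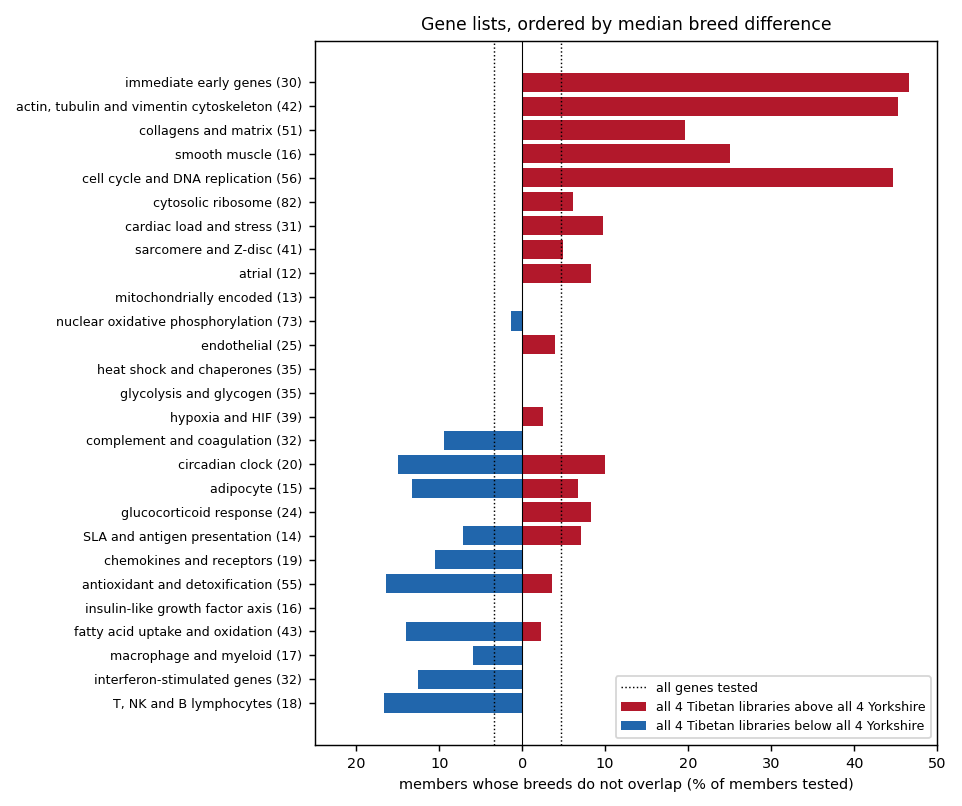
Share of each list's tested members (number in brackets) whose breeds do not overlap, in percent, with Tibetan above Yorkshire to the right (red) and Tibetan below Yorkshire to the left (blue). Dotted lines mark the shares over all genes tested, 4.65% to the right and 3.42% to the left, and lists are ordered by median breed difference. In the cell cycle list the filter on level admitted many members through the Tibetan libraries alone.

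Genes of fatty acid uptake and oxidation were mostly lower in Tibetan. Of 43 tested, 37 were lower, 0 were called, and 6 did not overlap with Tibetan below Yorkshire against 1 the other way (16.3% in all, against 8.07% of all genes). One of the 6, *UCP3*, passed the filter on level through the Yorkshire libraries alone. Without YL2 the numbers without overlap were 14 and 1 (34.9% in all, against 14.7% of all genes). The median difference was -0.40, -0.60 in the highland and -0.24 in the lowland (-0.18 without YL2), and it ranged from -0.44 to -0.33 with any 1 library left out. The enzymes of the oxidation spiral that did not overlap were *ACADL*, long-chain acyl-CoA dehydrogenase, at 54.1 to 71.99 against 88.4 to 119 FPKM (difference -0.75 ± 0.18, adjusted p = 0.169), *ACADS*, the short-chain enzyme, at 38.1 to 51.1 against 64.3 to 79.6 FPKM (difference -0.65 ± 0.16, adjusted p = 0.174), and *ECHS1*, *ACAA2* and *ECI2*, with differences from -0.77 (*ECHS1*) to -0.63 (*ECI2*). With equal sums of nuclear FPKM, 1 member did not overlap, and over all genes 202 did so with Tibetan higher and 75 with Tibetan lower. *CD36*, the fatty acid transporter, overlapped at 208 to 304 against 109 to 486 FPKM.

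*UCP3* (ENSSSCG00000014834, chromosome 9, 9166710 to 9179299), a mitochondrial protein of muscle tied to fatty acid use, had the largest difference of the list whose breeds did not overlap. It was at 0.264 and 0.0831 FPKM for TH, 0.0477 and 0.132 for TL, 3.08 and 2.63 for YH, 1.09 and 0.682 for YL (difference -1.25 ± 0.23, adjusted p = 0.0873; edgeR adjusted p = 0.0222). *AQP7* (ENSSSCG00000010992, chromosome 10, 37361492 to 37376617), a channel for glycerol, was at 15.4 and 11.3 FPKM for TH, 7.35 and 11.9 for TL, 50.4 and 32.0 for YH, 31.2 and 22.5 for YL (difference -1.47 ± 0.23, adjusted p = 0.0684). *SLC25A34*, a mitochondrial carrier, was at 11.3 and 17.3 FPKM for TH, 6.36 and 6.78 for TL, 34.9 and 22.7 for YH, 27.6 and 27.3 for YL (difference -1.43 ± 0.26, adjusted p = 0.0869). In none of these 3 genes did a Tibetan library reach the Yorkshire range. A gene model named *ATP5J* (ENSSSCG00000022586, chromosome 13, 199115875 to 199168012), coupling factor 6 of ATP synthase, was at 0.616 and 0.381 FPKM for TH, 0.478 and 1.22 for TL, 5.06 and 3.26 for YH, 3.43 and 2.79 for YL (difference -1.47 ± 0.22, adjusted p = 0.0598). *RER1*, a retrieval receptor of the endoplasmic reticulum, was at 3.16 and 3.33 FPKM for TH, 3.16 and 7.87 for TL, 11.3 and 8.001 for YH, 14.8 and 17.4 for YL (difference -1.40 ± 0.25, adjusted p = 0.0844). *BMPR1B*, a receptor of bone morphogenetic proteins, was at 0.558 and 0.624 FPKM for TH, 0.218 and 0.0622 for TL, 1.83 and 1.52 for YH, 2.73 and 2.23 for YL (difference -1.18 ± 0.21, adjusted p = 0.0844). All were lower in every Tibetan than in every Yorkshire library, and limma called none of them in 8 libraries. *KIT*, the receptor of stem cell factor on mast and pigment cells, was chosen after its values were seen and was at 0.991 and 1.44 FPKM for TH, 1.44 and 1.92 for TL, 2.93 and 3.91 for YH, 3.48 and 6.24 for YL (difference -1.04 ± 0.20, adjusted p = 0.0962).

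In the lists of oxidative phosphorylation and glycolysis 1 gene separated the breeds. Of 73 nuclear genes of oxidative phosphorylation, 1 did not overlap (the *ATP5J* model; 1.37%, against 8.07% of all genes). Without YL2 there were 3, all lower in Tibetan (4.11%, against 14.7% of all genes). The median difference was 0.19, or 0.03 without YL2 and 0.39 without YL1. None of 13 mitochondrially encoded genes separated the breeds, and their median of 0.29 became -0.03 without YL2 and 0.63 without YL1. Of 35 genes of glycolysis and glycogen, none separated the breeds, against 8.07% of all genes. Without YL2, 5 did, all lower in Tibetan (14.3%, against 14.7% of all genes and 6.57% in that direction). Their median was -0.02 (-0.20 without YL2 and 0.11 without TH1), with -0.55 in the highland and 0.35 in the lowland (0.11 without YL2). Of 55 antioxidant and detoxification genes, 9 did not overlap with Tibetan lower and 2 with Tibetan higher (20% of members against 8.07% of all genes). With equal sums of nuclear FPKM the numbers were 0 lower and 1 higher. The median of -0.35 became -0.06 without YL2 and -0.48 without YL1. *CAT*, catalase, was at 35.7 and 42.3 FPKM for TH, 61.9 and 49.3 for TL, 103 and 74.9 for YH, 65.6 and 685 for YL (difference -1.54 ± 0.64, adjusted p = 0.419; without YL2, -0.79 ± 0.25, adjusted p = 0.211), and YL2 was far above the other Yorkshire libraries. The list summed to 2627 to 3492 FPKM in the Tibetan libraries and 3090.3 to 12474 in the Yorkshire libraries, of which YL2, the library with the kidney genes, held the highest value, and at most 3428 without it. *PRDX3*, the mitochondrial peroxiredoxin, was at 111 to 187 against 195 to 234 FPKM (difference -0.50 ± 0.18, adjusted p = 0.347).

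The transcripts of 3 globins were higher in every Tibetan than in every Yorkshire library, without a call, and no other of the 6 globin and red cell genes tested separated the breeds. These were 50% of the members tested, against 4.65% of all genes in that direction, or 2 members with equal sums of nuclear FPKM. *HBA* (ENSSSCG00000007978, chromosome 3, 40950680 to 40951551), alpha globin, was at 1376 and 745 FPKM for TH, 581 and 754 for TL, 459 and 490.3 for YH, 256 and 231 for YL (difference 1.27 ± 0.25, adjusted p = 0.103). *HBB* (ENSSSCG00000014725, chromosome 9, 5632714 to 5634344), beta globin, was at 1708 and 876 FPKM for TH, 649 and 642 for TL, 599 and 534 for YH, 374 and 289.8 for YL (difference 1.04 ± 0.25, adjusted p = 0.176), and *HBM*, a further alpha-like globin, was at 5.61 to 15.1 against 1.80 to 4.64 FPKM (difference 1.16 ± 0.25, adjusted p = 0.125). The lowest Tibetan *HBB* value lay close to the highest Yorkshire one, and globin genes share sequence among copies, so the split between them is uncertain. The red cell enzyme *ALAS2* overlapped between the breeds, at 2.49 to 4.40 FPKM in the Tibetan libraries and 1.34 to 3.16 in the Yorkshire libraries. *TFRC*, the transferrin receptor through which cells take up iron, was at 61.0 and 65.2 FPKM for TH, 68.8 and 65.6 for TL, 34.6 and 23.4 for YH, 35.5 and 27.1 for YL (difference 1.10 ± 0.18, adjusted p = 0.0684) and was the single member of 39 hypoxia and HIF genes that did not overlap (2.56%, against 8.07% of all genes). With equal sums of nuclear FPKM *TFRC* overlapped, and 1 other member of the hypoxia and HIF list separated the breeds, with Tibetan lower. The median of that list was -0.03 (from -0.11 without YL2 to 0.04 without TH1). *HIF1A*, the oxygen-regulated subunit of the hypoxia-inducible factor, overlapped at 3.02 to 14.4 against 6.11 to 12.04 FPKM.

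Contractile genes mostly overlapped between the breeds. Of 41 sarcomere and Z-disc genes, *ACTC1* and *MYL4* did not overlap, both higher in Tibetan (4.88%, against 4.65% of all genes in that direction). The TL libraries were highest in both, while the TH libraries were those high in the summed atrial genes. *ACTC1*, cardiac alpha-actin, was at 2717 and 2039 FPKM for TH, 4818 and 5018 for TL, 838 and 1276 for YH, 1367 and 1457 for YL (difference 1.49 ± 0.26, adjusted p = 0.0844), and *MYL4*, the atrial essential light chain, was at 7.59 and 6.73 FPKM for TH, 8.85 and 21.4 for TL, 3.48 and 3.54 for YH, 4.60 and 2.09 for YL (difference 1.35 ± 0.34, adjusted p = 0.188). *MYL3*, the ventricular light chain, overlapped at 5341 to 9276 against 3282 to 7963 FPKM. The median difference of the sarcomere and Z-disc list was 0.31, or -0.10 without YL2. Without YL2, 2 members did not overlap with Tibetan higher and 5 with Tibetan lower (17.1%, against 14.7% of all genes). Of 82 cytosolic ribosome genes, 77 were higher in Tibetan with a median of 0.42, from 0.22 without TH1 to 0.57 without YL1. The median was 0.80 in the highland and 0.05 in the lowland (-0.11 without YL2), and 5 genes did not overlap, all higher in Tibetan (6.1%, against 4.65% of all genes in that direction), or 0 with equal sums of nuclear FPKM. Ribosomal protein genes have many near-identical copies, so single members are uncertain.

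The study picked 21 key genes from these libraries, so they are no independent evidence. Among them the breeds did not overlap for 6 with Tibetan higher (*FOS*, *ATF3*, *CTGF*, *DUSP1*, *HBA* and *HBB*) and for *DPP4* with Tibetan lower. These were 33.3% of the key genes, against 8.07% of all genes. None of 16 genes of the insulin-like growth factor axis separated the breeds (median -0.36, from -0.46 without TH2 to -0.25 without YL2), and *IGF2* overlapped at 10.4 to 36.3 against 26.4 to 118 FPKM. None of 35 chaperones did (median 0.16, from 0.04 without YH1 to 0.34 without YL1), and *HSPA1L*, a member of the HSP70 family, overlapped at 145 to 314 against 192 to 407 FPKM. Of 20 circadian clock genes, 2 were higher (*CCRN4L* and *CSNK1E*) and 3 lower (among them *CLOCK* and *NPAS2*) in all Tibetan libraries, with adjusted p of 0.253 (*CLOCK*) or more. These 5 were 25% of the list, against 8.07% of all genes, and 0 remained without overlap with equal sums of nuclear FPKM. *ARNTL*, the partner of CLOCK, overlapped at 0.657 to 2.51 against 1.66 to 2.63 FPKM. Of 15 adipocyte genes, *PPARG* was higher and *AQP7* and *PNPLA3* were lower in all Tibetan libraries (20%, against 8.07% of all genes), and *PNPLA3* passed the filter on level through the Yorkshire libraries alone. The list summed to 113 to 147 FPKM in the Tibetan libraries and 136 to 219 in the Yorkshire libraries.

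The genes that separated the breeds were spread over the genome and over levels of expression. Their share ranged from 5.32% of the genes tested on chromosome 4 to 12.3% on chromosome 17 among the 18 autosomes, and was 11.1% on the X chromosome, where 32 of 42 were higher in Tibetan. By mean level it was 8.78% below 2 FPKM, 7.84% from 2 to 10, 8.18% from 10 to 100 and 6.89% above. Of the 945 genes, 928 had at least 10 reads in every library of the higher breed, as did 25 of the 27 called genes.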

How the data were processed

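Heart RNA of 8 libraries, each a pool of 4 pigs, was sequenced. The authors aligned reads to Sscrofa10.2 with TopHat2 2.0.9 (the submitters' processing notes also name Bowtie 0.12.5 and DESeq 1.10.1) and deposited FPKM and a scaled count per gene, a signal here. Whole reads were recovered from that deposited signal (99.8% of low values whole within 0.1). The deposited files' 8 mean and ratio columns were not used. The log2(FPKM + 1) values, computed here from the deposited FPKM, were fitted with limma 3.58.1 (R 4.3.3, trend, breed and altitude terms, all 8 libraries), with Benjamini-Hochberg adjustment over 11709 genes. Alternatives changed the pseudocount, filter, scaling, terms and libraries, or used edgeR 4.0.16 on the reads. Reads on genes numbered 15686815 to 26722606 per library. Of 18975 genes, 14256 had a symbol in the table and 1025 more in a gene names table.

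Named genes were the 12 largest rises and 12 largest falls among called genes (filled up by smallest p), the called and defining members of each list, and marker genes. Other list members were named because their breeds did not overlap. The gene lists and the comparison were chosen with earlier results of these data known, and the cell cycle and cytoskeleton lists, *KIT*, *IGKC*, *VIM*, *MCM2*, *STMN1*, *TFRC* and *TCEAL3* after their values were seen. In simulated counts of this design limma recovered 29, 81 and 95% of genes changed by log2 fold changes of 1, 2 and 3. Some results, of 1 called gene and of members of 2 lists, are not reported here.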

Additional observations from a re-analysis of the deposited data

Results flagged for a closer look

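Of 74 sets of 4 libraries (37 named genes in each breed), 4 held a library far from the other 3, and chance gives such a gap in about 1 of 20 sets. For ENSSSCG00000028909, YH1 was at 3.22 FPKM, with the other Yorkshire libraries at 0.147 or below. For *FGF7*, YL2 was at 2.50 FPKM among Yorkshire libraries otherwise at 0.581 or below. For *TCEAL3*, YH2 was at 0.0449 FPKM and the other Yorkshire libraries were listed at 0. For *RER1*, TL2 was at 7.87 FPKM against 3.16 to 3.33 in the other Tibetan libraries, just under the lowest Yorkshire library at 8.001.

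The breed difference itself differed between the altitudes for 5 genes (limma, interaction of breed and altitude, adjusted over all genes tested). *CRTAC1*, which encodes a cartilage matrix protein, was at 7.02 and 6.74 FPKM in TH and at 0.129 or below in the other 6 libraries, and the highland difference exceeded the lowland difference by 2.98 ± 0.27 (adjusted p = 0.0276). The other 4 were short or repeated genes with 1 or 2 reads in a library. The small nucleolar RNAs *snoU13* (adjusted p = 1.51e-05) and *snosnR61* (adjusted p = 2.43e-05) and a gene without a symbol on chromosome 1 (adjusted p = 2.43e-05) had reads in TH alone, and a gene without a symbol on chromosome 2 (adjusted p = 1.51e-05) had 1 read in each TL library and none elsewhere.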

How the results depend on the processing

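The 27 calls (20 higher in Tibetan, 7 in Yorkshire) became 7 (6 and 1) with no filter on low values, 11 (7 and 4) with nuclear FPKM scaled to equal sums, and 64 (48 and 16) with a term for each group. At an adjusted p under 0.01 with a log2 difference over 1 there were 0 (0 and 0), and at an adjusted p under 0.1, chosen after seeing the data, 106 (82 and 24). With edgeR and 7 libraries there were 124 (83 and 41). With 7 libraries, the calls higher in Yorkshire were 12 at a pseudocount of 0.1 and 14 under median-ratio scaling. Leaving out 1 library gave 0 to 41 calls (0 to 32 higher in Tibetan, 0 to 16 in Yorkshire), with the widest changes without TH2, TL1, TL2, YH1, YH2 and YL1. The replicate numbers share only a number (correlations of deviations from -0.10 to 0.12), and a replicate block left 2 calls (2 and 0). Genes whose breeds did not overlap went from 945 (8.07%) to 338 at a mean of at least 10 FPKM (8.16% of the 4143 genes tested), 277 with equal nuclear sums, and 1687 under median-ratio scaling with 7 libraries. Leaving out 1 library gave 1129 to 1718, since fewer libraries make overlap rarer. The cause of the other changes was not tested. Of 796 alternative values of 37 named genes, 0 reversed, 494 kept their side of the threshold, 280 no longer passed it and 22 newly passed. Few reads limit short genes such as *TRIADIN* and *FGF7*.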
